A study of Mus musculus with 36 samples.

Results

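The mRNA of 6 receptors through which hormones act on bone was followed in mouse tibia: *Pth1r*, *Vdr*, *Esr1*, *Nr3c1*, *Thra* and *Thrb*. They were taken by symbol from a table of 56246 genes, and all 6 were found and passed the filter on low values. Bulk RNA had been sequenced from the tibiae of 12 untreated wild-type mice (labelled NT) and 24 *LMNA* G/G mice, of which 12 had received saline and 12 ABE. Each group held 6 males and 6 females, and all mice were 6 months old. *LMNA* G/G mice carry a double copy of a human BAC transgene with the *LMNA* G608G allele of Hutchinson-Gilford progeria syndrome, and the same BAC also holds the gene *RAB25*. Saline or ABE was injected by the retro-orbital route on postnatal day 14. ABE is an adenine base editor that rewrites the mutant base of the transgene, delivered by a pair of AAV9 vectors. No group received the editor without the transgene, and no transgenic group went without an injection.

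Pth1r is a receptor at the cell surface that binds parathyroid hormone (PTH) and its relative PTHrP, and in osteoblasts and osteocytes it signals through G proteins to cyclic AMP. The others are nuclear receptors, which bind DNA and change transcription when their small ligand is bound. Vdr answers to active vitamin D, Esr1 (estrogen receptor alpha) to estrogens, Nr3c1 to glucocorticoids, and Thra and Thrb to thyroid hormone, and Vdr and both thyroid hormone receptors pair with retinoid X receptors. PTH and vitamin D govern calcium and phosphate, estrogen restrains bone loss, glucocorticoid excess causes osteoporosis, and Thra is the main thyroid hormone receptor of bone.

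The 36 libraries held between 48064068 and 116206662 reads on genes. The deposited values are TPM (reads per gene corrected for length and library total), and the genes too short for the length correction held between 84.7% and 96.6% of a library's TPM. Each library was therefore rescaled by a median-of-ratios factor, which gives the scaled TPM used here. The factors ran from 0.216, in ABE-treated replicate 1, a female, to 1.57. The groups were compared with limma on log2(scaled TPM + 0.1), sex as a covariate, over 22553 genes, and a call is a Benjamini-Hochberg adjusted p under 0.05. The added 0.1 makes fold changes of scarce genes too small. Wild-type mice come from a number series of their own in the labels, so genotype and any batch tied to that series cannot be told apart. They were also untreated, so genotype and injection cannot be told apart either. Below, "with saline" and "with ABE" are short for the difference of that injected group from wild-type, and name no cause. Only the comparison of ABE with saline sets treatments side by side in the same genotype.

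All 8 osteocyte markers, among them *Sost* and *Dmp1*, were detected in every group, and so were all 15 markers of skeletal muscle, all 10 of neutrophils and all 10 of B cells. The summed scaled TPM of the muscle list had a median of 1030 in wild-type (203 to 3168), 2151 in saline-treated (337 to 8246) and 6473 in ABE-treated mice (1080 to 12872). That of the osteocyte list was 25.3 (12 to 53.2), 369 (177 to 494) and 274 (183 to 358), while that of the osteoblast list was 1372 (675 to 2921), 1369 (485 to 2193) and 1322 (678 to 2273). The erythroid list was at 263, 282 and 133 (24.6 to 275 in ABE-treated mice). Bulk RNA cannot tell fewer cells of a type from less RNA per cell.

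*Vdr* and *Pth1r*, the receptors that were higher in both *LMNA* G/G groups and followed the bone cell markers, are shown with the 250 bases upstream of RefSeq transcription starts on GRCm38.p6, read 5′ to 3′ on the gene's own (minus) strand. Capitals mark GC boxes (GGGCGG on either strand), the sites of Sp1-type factors. The *Vdr* window lies at chr15:97908297-97908546 and the *Pth1r* windows at chr9:110747146-110747395 and chr9:110743687-110743936.
Vdr: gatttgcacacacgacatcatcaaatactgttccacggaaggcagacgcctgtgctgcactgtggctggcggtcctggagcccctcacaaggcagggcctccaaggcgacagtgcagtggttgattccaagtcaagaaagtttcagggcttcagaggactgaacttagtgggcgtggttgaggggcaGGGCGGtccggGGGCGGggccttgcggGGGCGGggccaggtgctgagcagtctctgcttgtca
Pth1r, upstream start: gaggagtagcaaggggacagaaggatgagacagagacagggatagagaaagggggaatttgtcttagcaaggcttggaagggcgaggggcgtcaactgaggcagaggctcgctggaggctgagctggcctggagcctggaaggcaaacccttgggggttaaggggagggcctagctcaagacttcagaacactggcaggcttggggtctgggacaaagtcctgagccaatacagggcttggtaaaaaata
Pth1r, middle start: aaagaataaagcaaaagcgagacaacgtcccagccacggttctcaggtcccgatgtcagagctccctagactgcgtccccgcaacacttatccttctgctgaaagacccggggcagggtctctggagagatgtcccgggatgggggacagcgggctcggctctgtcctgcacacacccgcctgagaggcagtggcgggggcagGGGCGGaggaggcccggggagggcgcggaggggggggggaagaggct
The *Vdr* window held 3 GC boxes and 61.2% G and C. The *Pth1r* windows shown held none and 1 GC box at 56.0% and 65.6% G and C. Across 32544 promoter windows of the same length, 33.0% held a GC box and the median G and C content was 52.4%. The last *Pth1r* window, at chr9:110742611-110742860 and not shown, held 4 GC boxes at 70.4% G and C. Of the *Thrb* windows 1 held 3 GC boxes, and the *Esr1* windows held none. The letters AGGTCA, the half-site of many nuclear receptors, occurred once in these windows, upstream of *Thrb* (14% of all windows hold it on either strand). *Thra* and *Nr3c1* had no entry in the sequence table used.

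*Pth1r* was the most abundant of the receptors in 35 of 36 libraries, *Esr1* the fifth and *Thrb* the sixth in all 36. *Thra* and *Nr3c1* could not be ordered: *Thra* was above *Nr3c1* in 6 of 12 wild-type, 6 of 12 saline-treated and 7 of 12 ABE-treated libraries. *Vdr* was below *Nr3c1* in all 12 wild-type libraries but in only 8 of 12 saline-treated libraries. TPM corrects for gene length, so this order holds only as far as that length fits the transcripts expressed. For *Pth1r*, *Thra* and *Thrb* the length equalled all annotated exonic bases. It was 13661 bp for *Esr1* and 5650 bp for *Vdr*. Even *Thrb* rested on at least 429 reads per library.

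**Figure D1:**
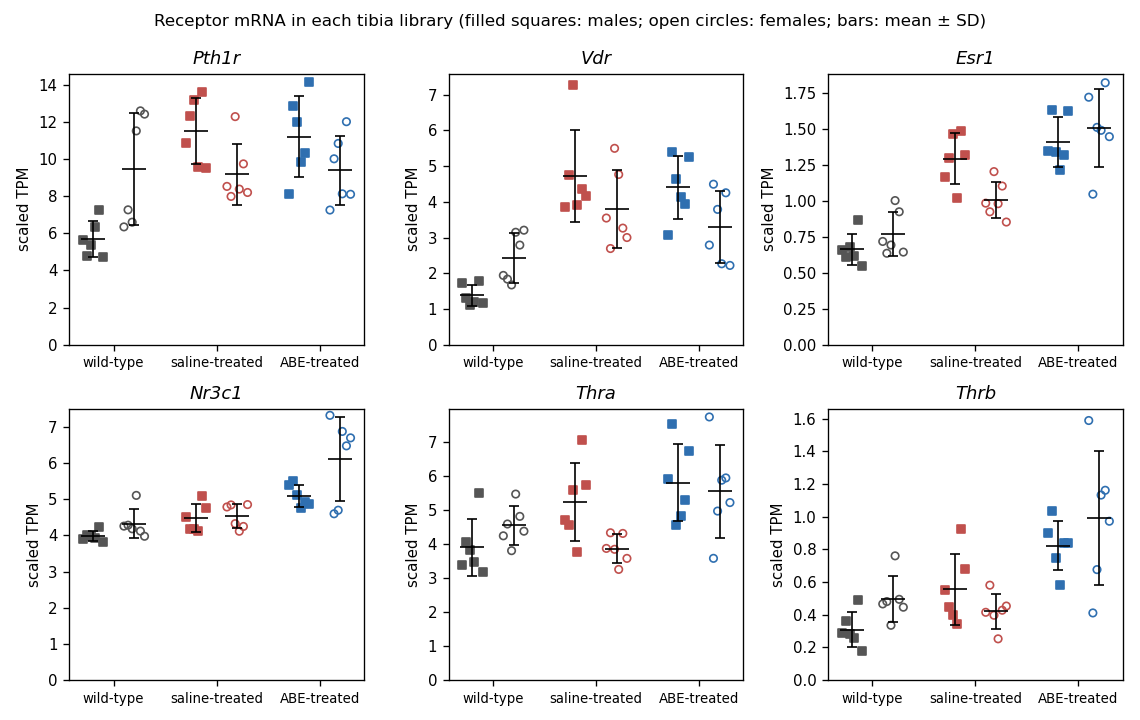
Scaled TPM of the 6 receptors in each of 36 tibia libraries, by group and sex (filled squares males, open circles females; bars give mean ± SD of 6). *Esr1* in all 12 ABE-treated mice lies above all 12 wild-type mice, and *Pth1r*, *Vdr* and *Esr1* in saline-treated males lie above all wild-type males.

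Among saline-treated *LMNA* G/G mice, 3 of 6 receptors were higher than in wild-type and 0 were lower, where 23.7% of all genes tested were called higher and 26.4% lower. Those were *Vdr*, *Esr1* and *Pth1r*. In ABE-treated mice all 6 were higher, against a background of 33.0% higher and 34.1% lower. Between ABE-treated and saline-treated mice, 4 of 6 were higher in ABE-treated mice (*Esr1*, *Nr3c1*, *Thra* and *Thrb*), against 23.3% of all genes called higher and 20.2% lower. The scaling bears on these directions. With TPM as deposited the median gene shifted by -0.15, -0.49 and -0.31 in the 3 comparisons, and relative to zero *Pth1r* (-0.08), *Nr3c1* (-0.16) and *Thra* (-0.16) then pointed down in ABE-treated mice against wild-type, while *Vdr* (0.46), *Esr1* (0.41) and *Thrb* (0.51) still pointed up. Against saline-treated mice *Esr1* (-0.05), *Nr3c1* (-0.10) and *Thra* (-0.08) did so too, all above that shift. On the deposited TPM only *Esr1* and *Thrb* were called in ABE-treated mice against wild-type. *Pth1r* lost its call in saline-treated mice, and no receptor was called between ABE and saline. Counts over several of the gene lists below, but not all, are therefore also given with TPM as deposited, with TPM rescaled over the longer genes alone, or with both. Over the longer genes the median gene shifted by -0.18, -0.24 and -0.02.

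**Figure D2:**
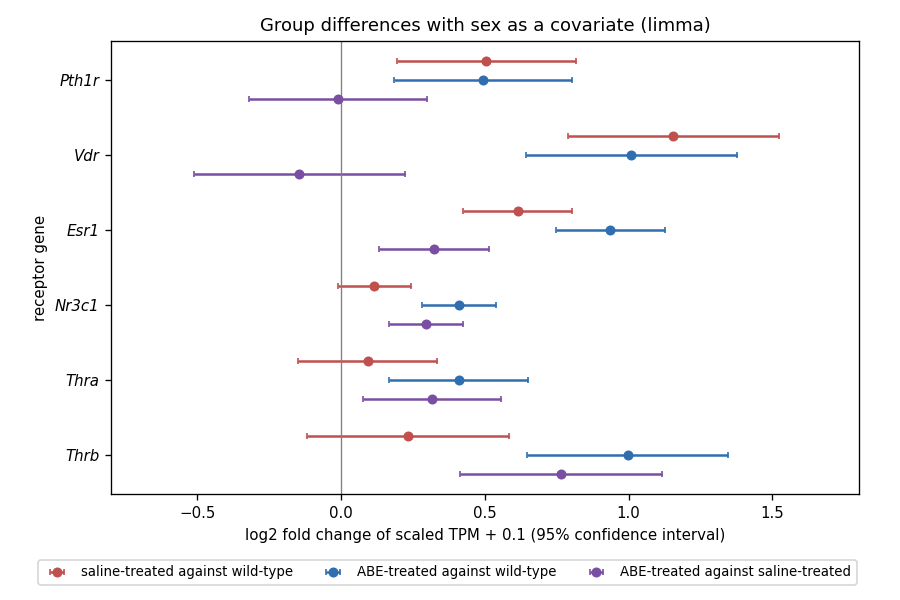
log2 fold change (x axis, with 95% confidence interval) of each receptor in 3 comparisons of 12 against 12 mice, with sex as a covariate. *Vdr*, *Esr1* and *Pth1r* lie above 0 in both *LMNA* G/G groups against wild-type, and the intervals of *Esr1*, *Nr3c1*, *Thra* and *Thrb* lie above 0 for ABE-treated against saline-treated mice.

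*Pth1r* (chr9:110722085-110747145, GRCm38) was at 4.72, 6.48 and 12.6 scaled TPM (lowest, median and highest) in wild-type, 7.99, 9.65 and 13.6 in saline-treated and 7.26, 10.2 and 14.1 in ABE-treated mice. The groups overlapped, and 2 mice of each *LMNA* G/G group lay above every wild-type mouse. The mean rose from 7.58 ± 2.91 (SD, n = 12) to 10.4 ± 2.04 with saline, a log2 fold change of 0.51 (SE 0.15, limma adjusted p = 0.0064), and to 10.3 ± 2.16 with ABE (0.49, SE 0.15, adjusted p = 0.0048). The groups of *LMNA* G/G mice differed by -0.01 (95% interval -0.32 to 0.30). *Myl3*, a gene for a muscle myosin light chain, lies on the opposite strand and shares 95 of the 2925 exonic bases of *Pth1r*. *Myl3* was at 1.90 scaled TPM in wild-type, 0.682 after saline and 5.16 after ABE. Whether the counting used strand is not given in the sources used here.

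Of 25 genes that carry the PTH signal inside the cell, 9 rose and 9 fell in saline-treated mice, with a median log2 fold change of -0.0014 beside -0.0026 over all genes. The deposited TPM gave 1 higher and 5 lower, and over the longer genes 2 were higher and 12 lower. *Gnas*, the stimulatory G protein that couples Pth1r to cyclic AMP, rose by 0.37 (adjusted p = 0.0037) and *Prkar2a*, a regulatory subunit of protein kinase A, by 0.83 (adjusted p = 0.0020). The adenylyl cyclase *Adcy7* fell by 1.01 on the log2 scale (adjusted p = 2.4e-10) and the receptor kinase *Grk2* fell by 0.38 (adjusted p = 0.00047). Of 14 tested ligands and target genes of PTH, 10 rose and 0 fell in saline-treated mice (median 0.61), and 11 rose and 1 fell in ABE-treated mice. The deposited TPM gave 6 higher with saline, and 5 higher and 1 lower with ABE. *Sost*, which encodes the Wnt inhibitor sclerostin and is known to be repressed by PTH, was at 8.39 ± 5.10, 122 ± 43.8 and 115 ± 23.8 scaled TPM in the 3 groups (log2 fold change 4.04 with saline). *Mmp13*, a collagenase that PTH induces, rose by 2.01 with saline and by 1.18 with ABE. *Sost* and *Fgf23* also belong to the osteocyte list. The list of PTH ligands and targets mixes genes that PTH induces, such as *Mmp13*, with genes that it represses, such as *Sost*. Its counts and median therefore give no direction of a PTH response.

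*Vdr* (chr15:97854425-97910630) had the largest estimated fold change with saline among the 6 receptors. It was at 1.11, 1.76 and 3.21 scaled TPM in wild-type, 2.69, 4.03 and 7.28 in saline-treated and 2.22, 4.04 and 5.41 in ABE-treated mice. Of the saline-treated mice 10 of 12, and of the ABE-treated mice 8 of 12, lay above the highest wild-type mouse. The mean went from 1.91 ± 0.748 to 4.26 ± 1.24 with saline (log2 fold change 1.16, SE 0.18, limma adjusted p = 3.1e-06, a 2.23-fold change, 1.73 to 2.87) and to 3.86 ± 1.07 with ABE (1.01, SE 0.18, adjusted p = 1.1e-05). ABE-treated and saline-treated mice differed by -0.15 (95% interval -0.51 to 0.22, adjusted p = 0.54).

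Among 7 tested enzymes and partners of vitamin D, 4 rose and 1 fell in both *LMNA* G/G groups. With TPM as deposited 0 were higher and 2 lower with saline and 1 higher and 2 lower with ABE, and over the longer genes 0 higher and 3 lower with saline and 4 higher and 2 lower with ABE. The saline count of higher genes was 2 without wild-type replicate 1, 8 or 11 or saline-treated replicate 2, 7, 11 or 12, and that of lower genes was 2 without saline-treated replicate 11 or ABE-treated replicate 1. *Rxra*, a retinoid X receptor and partner of Vdr, was at 3.35 ± 0.720, 4.42 ± 1.28 and 6.25 ± 1.66 scaled TPM, and rose with saline (0.37, adjusted p = 0.035) and ABE (0.86). *Rxrg*, a retinoid X receptor known from muscle, rose by 0.78 and 1.84. *Cyp2r1*, a vitamin D 25-hydroxylase, fell by 0.27 on the log2 scale with saline, and *Pdia3*, a protein disulfide isomerase also described as a membrane vitamin D receptor, rose by 0.36. Of 11 target genes of vitamin D, 6 rose and 1 fell with saline and 9 rose and 1 fell with ABE. For ABE the deposited TPM gave 4 higher and 2 lower. *Spp1* (osteopontin) went from 58.3 ± 18.9 to 257 ± 91.3 scaled TPM with saline (2.11) and to 142 ± 46.7 with ABE (1.27), with a log2 fold change of -0.84 between ABE and saline (adjusted p = 0.0017). *Bglap* (osteocalcin) had 152 ± 74.6, 171 ± 84.1 and 180 ± 65.7, which did not pass in any comparison, and the phosphate transporter *Slc20a1* fell by 0.70 with saline.

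*Esr1* (chr10:4611593-5005614) was the only one of the 6 receptors whose ABE-treated and wild-type mice did not overlap. Its scaled TPM ran over 0.550, 0.670 and 1.0 in wild-type, 0.853, 1.14 and 1.49 in saline-treated and 1.05, 1.47 and 1.82 in ABE-treated mice. The 12 ABE-treated mice did not overlap the 12 wild-type mice, which was so, with the ABE-treated mice higher, for 3.18% of all genes, and 8 of 12 saline-treated mice lay above the highest wild-type mouse. The log2 fold change was 0.61 with saline (SE 0.09, limma adjusted p = 2.1e-06) and 0.94 with ABE (SE 0.09, adjusted p = 6.0e-10). The direct difference between the treatments was 0.32 (SE 0.09, adjusted p = 0.0069).

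The enzymes and other receptors of estrogen showed 4 of 9 higher and 0 lower with saline, and 1 of 9 higher under either other scaling. *Gper1*, a membrane receptor for estrogen, went from 0.277 ± 0.117 to 0.630 ± 0.156 scaled TPM (log2 fold change 0.99, adjusted p = 2.5e-07) and to 0.600 ± 0.124 with ABE. *Esrra*, an orphan receptor that drives mitochondrial genes, did not pass with saline (-0.11, adjusted p = 0.58) and rose with ABE (0.68), while *Hsd17b4*, which can oxidise estradiol, rose by 0.26 and 0.49. Of 10 estrogen target genes 3 rose and 1 fell with saline, with a median of 0.01. Deposited TPM gave 1 higher and 0 lower (median -0.08), and over the longer genes 3 were higher and 2 lower (median -0.14). *Stc2*, a secreted glycoprotein, rose by 1.18 and *Rara*, a retinoic acid receptor, fell by 0.17. The most abundant of them, *Ltf* (-0.05, adjusted p = 0.88) and *Cxcl12* (0.36, adjusted p = 0.10), did not pass with saline. *Ltf* also belongs to the neutrophil list.

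*Nr3c1* (chr18:39410545-39519421) had the lowest coefficient of variation of the 6 receptors among wild-type mice, 8.15%. It was at 3.81, 4.06 and 5.11 scaled TPM in wild-type, 4.11, 4.41 and 5.09 in saline-treated and 4.60, 5.26 and 7.32 in ABE-treated mice. No saline-treated mouse and 7 of 12 ABE-treated mice lay above the highest wild-type mouse. With saline the log2 fold change was 0.12 (SE 0.06, limma adjusted p = 0.13), and it was 0.41 with ABE (SE 0.06, adjusted p = 1.0e-06) and 0.29 between ABE and saline (SE 0.06, adjusted p = 0.00094). The saline value passed when only the saline-treated and wild-type libraries were fitted (0.12, adjusted p = 0.030) and with array weights (0.12, adjusted p = 0.015).

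Most target genes of the glucocorticoid receptor were higher in both *LMNA* G/G groups. Of 16 on the list, 15 rose and 0 fell in saline-treated mice (median 1.05), and 16 of 16 rose in ABE-treated mice (median 1.36), beside medians of -0.0026 and -0.018 over all genes. *Mt2*, a metallothionein that binds zinc, went from 5.88 ± 0.909 to 24.9 ± 5.08 scaled TPM with saline (2.05, adjusted p = 3.3e-14) and 12.9 ± 3.80 with ABE (1.09). *Ddit4*, an inhibitor of mTORC1, went from 6.18 ± 2.19 to 25.1 ± 8.11 and 23.1 ± 3.90. With the muscle list as a covariate 13 of 16 were higher and 1 lower with saline, and 11 of 16 higher with ABE. The list holds genes that muscle atrophy also raises (*Trim63* and *Fbxo32*), and metallothioneins answer to metals as well. Of 11 tested genes of glucocorticoid metabolism and chaperones, 6 rose and 1 fell with saline. None passed in either direction with TPM as deposited, and over the longer genes 3 were higher and 2 lower. The chaperone *Hsp90ab1*, which holds the unliganded receptor, rose from 39.4 ± 3.66 to 59.4 ± 8.43 scaled TPM (0.58), *Hspa8* rose by 0.55 and the cochaperone *Ppid* fell by 0.13.

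*Thra* (chr11:98740638-98769006) was at 3.18, 4.14 and 5.48 scaled TPM in wild-type, 3.25, 4.32 and 7.04 in saline-treated and 3.58, 5.58 and 7.73 in ABE-treated mice. The groups overlapped broadly, with 3 saline-treated and 6 ABE-treated mice above the highest wild-type mouse. Its log2 fold change was 0.09 with saline (SE 0.12, limma adjusted p = 0.54), 0.41 with ABE (SE 0.12, adjusted p = 0.0029) and 0.32 between them (SE 0.12, adjusted p = 0.031). The last call was lost on leaving out any of 6 libraries (ABE-treated replicates 1, 8 and 12 and saline-treated replicates 4, 6 and 10), with values of 0.27 to 0.30 and adjusted p of 0.052 to 0.067. *Nr1d1*, the circadian repressor on the opposite strand, shares 263 of the 4614 exonic bases of *Thra* and was called in none of the 3 comparisons (adjusted p = 0.73, 0.44 and 0.28).

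*Thrb* (chr14:17660261-18038090), the scarcest receptor, was at 0.180, 0.404 and 0.760 scaled TPM in wild-type, 0.253, 0.437 and 0.926 in saline-treated and 0.411, 0.870 and 1.59 in ABE-treated mice. Only 1 saline-treated mouse but 8 ABE-treated mice lay above every wild-type mouse. The log2 fold change was 0.23 with saline (SE 0.17, limma adjusted p = 0.27), 1.0 with ABE (SE 0.17, adjusted p = 6.4e-06) and 0.76 between them (SE 0.17, adjusted p = 0.0014).

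The balance of both thyroid hormone receptors needs no library scaling, but tissue content was not held constant in it. After group and sex means were removed, *Thrb* correlated with the skeletal muscle list at 0.88 and *Thra* at 0.72. The ratio was not refitted with that list. The *Thra* to *Thrb* ratio of TPM was 11.3 ± 2.69 (SD, n = 12) in wild-type mice, 9.78 ± 2.08 after saline and 6.59 ± 1.33 after ABE. It ranged from 7.19 to 17.7, 7.45 to 14.1 and 4.87 to 8.7. The difference of log2 ratios was -0.77 between ABE-treated and wild-type mice, with p = 1e-05, the smallest that 100000 two-sided permutations within sex can give, and -0.57 for ABE against saline (permutation p = 0.00014). Saline-treated and wild-type mice differed by -0.20 (permutation p = 0.10). In males alone the difference was -0.41 (exact permutation p = 0.0368) and in females alone 0.0050 (exact permutation p = 0.978). It passed over both sexes without saline-treated replicate 4 (-0.25, permutation p = 0.033) or 9 (-0.25, p = 0.041) or wild-type replicate 6 (-0.24, p = 0.044). Adjusted over the 3 comparisons these p-values were 3e-05, 0.00021 and 0.10.

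Among the 5 tested genes of thyroid hormone metabolism and transport, 0 rose and 1 fell with saline (0 and 2 over the longer genes). The gene that fell was *Dio2*, the deiodinase that activates thyroid hormone, at 0.424 ± 0.117, 0.241 ± 0.0679 and 0.372 ± 0.0976 scaled TPM (log2 fold change -0.62, adjusted p = 4.2e-05, and -0.15, adjusted p = 0.26). The carriers *Slc16a10* and *Slc7a5* did not pass with saline and fell by 0.71 and 0.96 with ABE. Of 12 thyroid hormone target genes, 5 rose with saline and 11 with ABE, and 10 rose between ABE and saline, with 0 lower each time. With TPM as deposited the counts of higher genes were 3, 8 and 4, with 1 lower in both ABE comparisons, and over the longer genes 3 were higher and 1 lower with saline. The saline count was also 3 without wild-type replicate 1 or saline-treated replicate 2, 7, 11 or 12. *Atp2a1*, the calcium pump of fast muscle, was at 205 ± 138, 499 ± 382 and 1108 ± 614 scaled TPM. *Ucp3*, a mitochondrial carrier of muscle, rose by 1.48 with saline and 2.16 with ABE, and the glucose transporter *Slc2a4* rose by 1.61 with ABE. The same 3 genes are abundant in muscle, and with the muscle list as a covariate 2 were higher and 3 lower with saline, 2 higher with ABE, and 3 higher between ABE and saline.

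The group differences were set out by sex, since several of these hormones differ between males and females. Within males all 6 receptors were called higher in saline-treated than wild-type mice, and within females 0 of 6 were, with 2 of 6 at an unadjusted p under 0.05 (limma in each sex alone). Of all genes 26.2% were called higher in males and 8% in females, and 21.7% were called in either direction in females. The share of all genes at an unadjusted p under 0.05 in females alone is not given here. The count of 2 of 6 therefore has no background beside it. *Pth1r* in wild-type mice was 5.69 ± 0.973 scaled TPM in males and 9.46 ± 3.02 in females (n = 6 each), and in saline-treated mice 11.5 ± 1.79 and 9.19 ± 1.64. *Vdr* in wild-type mice was 1.38 ± 0.297 in males and 2.43 ± 0.695 in females, and in saline-treated mice 4.72 ± 1.3 and 3.80 ± 1.10. The wild-type males were thus the low groups of both genes. All 6 saline-treated males lay above all 6 wild-type males for *Pth1r*, *Vdr* and *Esr1*, which was so, with the saline-treated males higher, for 12.3% of all genes.

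Whether the gap between saline-treated and wild-type mice differed by sex was tested as an interaction. It was -1.0 for *Pth1r* (SE 0.24, limma adjusted p = 0.0502) and -1.07 for *Vdr* (SE 0.29, adjusted p = 0.059). It was -0.51 for *Esr1* (adjusted p = 0.10), -0.64 for *Thra* (adjusted p = 0.11) and -0.85 for *Thrb* (adjusted p = 0.14). Each was lower in females. None passed, where 0.479% of all genes did, although 5 of 6 receptors had an unadjusted p under 0.05, as did 21.4% of all genes. On recovered reads limma-voom called 2 of the 6 and 2.92% of all genes, *Pth1r* (adjusted p = 0.031) and *Vdr* (adjusted p = 0.040). *Nr3c1* differed by -0.10 (adjusted p = 0.65). With saline *Thra* and *Thrb* pointed down in females (-0.23 and -0.19) and up in males (0.41 and 0.66). The sex difference of *Pth1r* passed without any 1 of wild-type replicates 3, 4, 5 and 10, saline-treated replicates 3 and 10 and ABE-treated replicates 1, 2, 5, 7 and 12 (adjusted p = 0.015 to 0.047). That of *Vdr* passed without wild-type replicate 5 or 10, saline-treated replicate 3 or 10 or ABE-treated replicate 1 or 2 (adjusted p = 0.024 to 0.050). Those of *Esr1* (adjusted p = 0.035) and *Thra* (adjusted p = 0.033) passed without wild-type replicate 10. Wild-type females against wild-type males gave 0.68 for *Pth1r* (adjusted p = 0.061) and 0.75 for *Vdr* (adjusted p = 0.081), with 0 of 6 called by limma (0.541% of all genes), 3 of 6 at an unadjusted p under 0.05 (14.2% of all genes) and 1 by limma-voom (*Pth1r*, with 1.22% of all genes). Without wild-type replicate 5 or 10 both passed, and without replicate 3 *Pth1r* did (adjusted p = 0.019 to 0.032). For ABE against saline the sex difference passed for 0 of 6 (0.0532% of all genes), with adjusted p of 0.26 to 0.91, 1 of 6 at an unadjusted p under 0.05 (*Esr1*, 0.40, with 14.8% of all genes) and 0 of 6 by limma-voom.

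**Figure D3:**
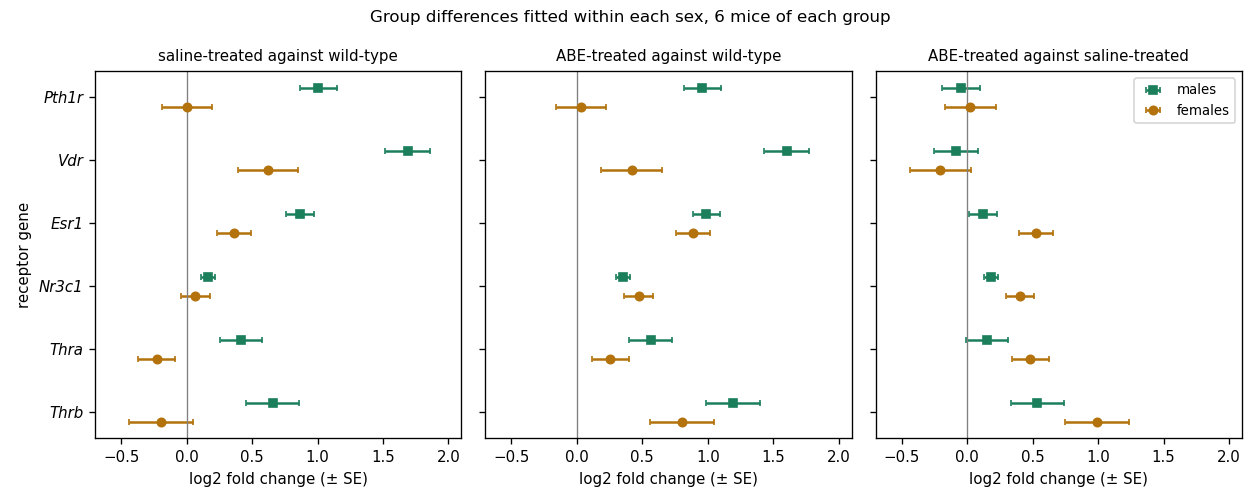
log2 fold change ± SE of each receptor fitted within males (squares) or females (circles), 6 mice per group, in 3 comparisons. *Pth1r* lies at 1.01 in males and 0.00 in females for saline against wild-type, and *Nr3c1*, *Thra* and *Thrb* in ABE against saline lie above 0 in both sexes.

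In ABE-treated mice *Esr1* was above wild-type without overlap in both males (0.99) and females (0.88, adjusted p = 0.0001), as were 19.4% and 6.25% of all genes. *Nr3c1* was 0.35 higher in males and 0.47 higher in females (adjusted p = 0.0025), and *Thrb* 1.19 and 0.80 (adjusted p = 0.012). *Pth1r* and *Vdr* were higher in ABE-treated males (0.96 and 1.6) and were not called in females (0.03, adjusted p = 0.93, and 0.42, adjusted p = 0.14). Of all genes 31.1% were called higher in ABE-treated males and 25.2% in ABE-treated females, against wild-type of the same sex.

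The receptors fell into groups by the libraries in which they were high. After the mean of each group and sex was removed, *Pth1r* and *Vdr* correlated at 0.78 with each other over the 36 libraries, and with the osteoblast list at 0.81 and 0.72. *Nr3c1*, *Thra* and *Thrb* correlated with the skeletal muscle list at 0.78, 0.72 and 0.88, and *Thrb* with *Nr3c1* at 0.86 and with *Thra* at 0.88. *Pth1r* (-0.02) and *Vdr* (-0.37) did not rise with the muscle list. *Esr1* correlated at 0.78 with *Thra*, 0.65 with *Thrb*, 0.54 with *Pth1r* and 0.40 with *Vdr*. With the lists it was at 0.45 (osteoblast), 0.44 (muscle) and 0.57 (endothelial). The erythroid list gave -0.86 for *Thra*, -0.79 for *Thrb* and -0.76 for *Esr1*. These are descriptions over libraries that share their scaling factor and their tissue content. ABE-treated replicate 1, the library with the lowest scaling factor, was also the highest for *Nr3c1*, *Thra* and *Thrb*. The correlations were not computed without it.

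**Figure D4:**
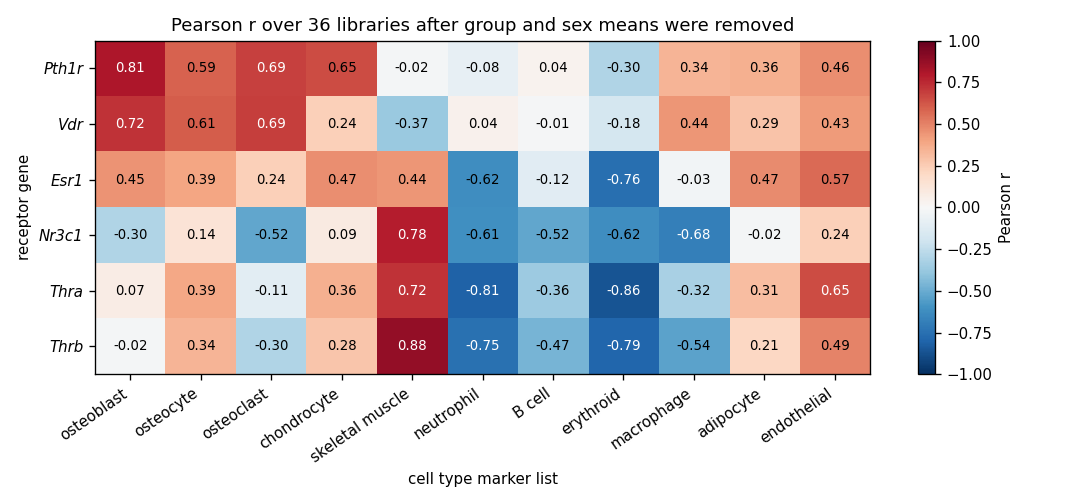
Pearson r between each receptor and the mean log2 level of 11 marker lists over 36 libraries, with group and sex means removed. *Pth1r* and *Vdr* are highest with bone cell lists, whereas *Thrb*, *Nr3c1* and *Thra* are highest with the skeletal muscle list. *Thra* and *Thrb* are lowest with the erythroid list and *Nr3c1* with the macrophage list.

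The genes with the highest r to each receptor were taken from 12383 genes with a mean of at least 1 scaled TPM. For *Pth1r* they were *Sp7*, the osterix factor of osteoblasts (r = 0.90), *Mmp14* (0.89) and *Adam12* (0.89). For *Vdr* they were *Lifr* (0.89), *Lrp4* (0.89), a receptor that binds sclerostin, and *Angpt4* (0.87). For *Esr1* they were *Ergic1* (0.85), *Snx9* (0.85) and *Spg20* (0.83). For *Nr3c1* they were *Pdlim5* (0.94), *Zyg11b* (0.93) and *Cul5* (0.93), for *Thra* they were *Aldh7a1* (0.94), *Zbtb4* (0.93) and *Ptov1* (0.93), and for *Thrb* they were *Ccser2* (0.98), *Nfib* (0.97) and *Fermt2* (0.97).

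Since the muscle list rose in 12 of 15 genes with saline and 15 of 15 with ABE, the group differences were refitted with its mean log2 level as a covariate. *Vdr* kept its rise with saline (1.18, adjusted p = 2.2e-05) and ABE (1.05, adjusted p = 0.0026), and so did *Esr1* (0.47, adjusted p = 7.2e-05, and 0.65, adjusted p = 7.0e-05). *Pth1r* dropped to 0.40 with saline (adjusted p = 0.0504) and to 0.29 with ABE (adjusted p = 0.32). Against wild-type the ABE values became 0.15 for *Nr3c1* (adjusted p = 0.062), -0.12 for *Thra* (adjusted p = 0.43) and 0.10 for *Thrb* (adjusted p = 0.52). Between ABE and saline, *Nr3c1* (0.17, adjusted p = 0.037) and *Thrb* (0.31, adjusted p = 0.027) still passed, and *Esr1* (0.18) and *Thra* (0.05) did not. The covariate itself differed between the groups, so that a change in muscle content and a change in the receptors' own cells cannot be told apart.

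The erythroid list was lower in 7 of 7 tested genes in ABE-treated mice against both other groups. With the neutrophil, B cell and erythroid lists as covariates, *Vdr* (1.11 with saline, 0.92 with ABE) and *Esr1* (0.74 and 0.77) again passed against wild-type. *Thrb* (0.52, adjusted p = 0.011) and *Nr3c1* (0.20, adjusted p = 0.033) also passed with ABE. The calls of *Pth1r* with saline and with ABE, and of *Thra* with ABE, were lost in that fit. Between ABE and saline 0 of 6 receptors passed in limma, with 2 of 6 at an unadjusted p under 0.05, *Nr3c1* (0.17, adjusted p = 0.076) and *Thrb* (0.32, adjusted p = 0.12). The share of all genes called in that fit is not given here, so the count has no background beside it. *Esr1* was at 0.04 in that fit (adjusted p = 0.84).

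**Figure D5:**
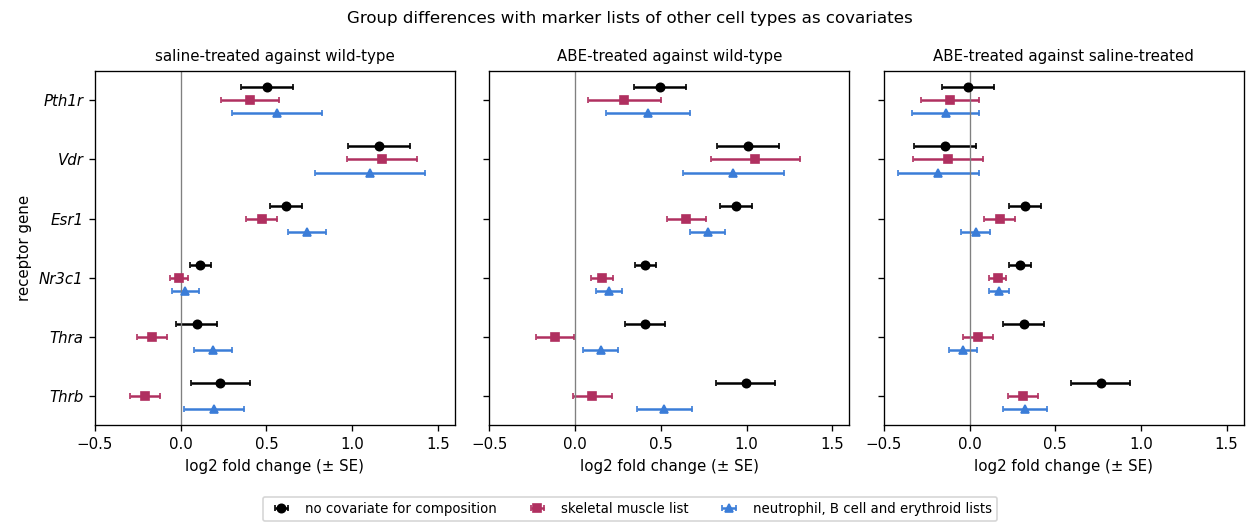
log2 fold change ± SE of each receptor in 3 comparisons, without a covariate for composition (circles), with the skeletal muscle list (squares) and with 3 blood cell lists (triangles). *Vdr* and *Esr1* stay well above 0 against wild-type in all fits, and with the muscle list *Thrb* against wild-type goes from 1.0 to 0.10 with ABE and from 0.23 to -0.21 with saline.

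Of 17 coregulators, the cofactors through which nuclear receptors act, 6 rose and 3 fell with saline (median 0.02), and 10 rose and 1 fell with ABE (median 0.14). The direction turned with the scaling: with TPM as deposited 0 passed with saline, and 0 were higher and 11 lower with ABE (median -0.43). Over the longer genes 1 was higher and 9 lower with saline, and 4 higher and 8 lower with ABE. The count of lower genes with saline was 1 without saline-treated replicate 8 or 9. That with ABE was 2 or 3 without wild-type replicate 6, 9 or 10, saline-treated replicate 4, 11 or 12 or ABE-treated replicate 2, 9, 10 or 11. *Ncor1*, the corepressor of unliganded thyroid hormone receptors, was at 6.68 ± 0.317, 6.76 ± 0.199 and 7.02 ± 0.370 scaled TPM. *Smarca4*, the ATPase of a chromatin remodelling complex, fell by 0.32 with saline, and *Prmt1*, an arginine methyltransferase, rose by 0.42. Of 12 tested receptors of other hormones, 2 rose and 3 fell with saline. On deposited TPM 1 was higher and 2 lower, over the longer genes 1 was higher and 5 lower, and without wild-type or saline-treated replicate 11 1 was higher. *Calcr*, the calcitonin receptor of osteoclasts, went from 0.0602 ± 0.0292 to 0.191 ± 0.0684 scaled TPM (0.85, adjusted p = 7.9e-07), while the osteoclast list rose in 7 of 7 genes. The TSH receptor *Tshr* fell by 0.44, and the retinoic acid receptor *Rarg* did not pass (-0.12, adjusted p = 0.32).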

How the data were processed

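RNA of 36 tibiae, from which epiphyses and marrow had been removed, was sequenced after TriZol extraction and TruSeq stranded mRNA preparation. The authors aligned reads with STAR (2.73a per the labels) to GRCm38 and counted genes with QoRTs on a GENCODE annotation. The deposited values are TPM made by the authors. They equal whole reads divided by gene length minus 218 bp (tolerance 0.01), so that reads could be recovered. Each library was scaled by the median ratio over 14219 genes detected in all libraries with a mean TPM of at least 0.5. Genes with a mean scaled TPM of at least 0.1 (22553) were tested with limma 3.58.1 (R 4.3.3) on log2(scaled TPM + 0.1), all 36 libraries in 1 fit with sex as covariate, and the sexes were compared in a fit of 6 group-and-sex means. P-values were adjusted by Benjamini-Hochberg at 0.05.

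On simulated data with 200 changed genes the group test recovered 163 at a log2 change of 1 (8 others called) and the interaction test 163 at a log2 change of 2 (14 others called). The *Thra* to *Thrb* ratio was tested by permutation within sex with Python 3.11.15 and scipy 1.17.1. Promoter sequences are RefSeq's, and positions come from a GENCODE annotation of GRCm38. The receptors and gene lists were chosen with earlier results of these data known. Named list genes are the most abundant of each list and those with the largest called rise and fall with saline. One gene that this rule names is not reported here. Replicate numbers only name mice. Alternatives changed the scaling, pseudocount, filter, samples, weights, covariates and test, and left out each library.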

Additional observations from a re-analysis of the deposited data

Results flagged for a closer look

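In 3 of 36 sets of 6 mice (receptor, group and sex), 1 mouse stood apart from the others by Dixon's test at 95%, which chance does in about 1 in 20 sets. *Vdr* was at 7.28 scaled TPM in saline-treated replicate 9, a male. *Nr3c1* was at 5.11 and *Thrb* at 0.760 in wild-type replicate 6, a female.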

How the results depend on the processing

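Values are log2 differences. Apart from ranges over left-out libraries, each receptor value below comes from a fit whose call or direction differed from the main fit. Every *Pth1r* value given against wild-type, with saline or with ABE, is a lost call, whatever its size. *Nr3c1* with saline under array weights is a gained one. The *Esr1* call in ABE-treated against wild-type mice held under every alternative run. With TPM as deposited, saline against wild-type gave *Pth1r* 0.33, *Nr3c1* -0.058 and *Thra* -0.081, ABE against wild-type 2 receptors called with *Pth1r* -0.082, *Vdr* 0.46, *Nr3c1* -0.16 and *Thra* -0.16, and ABE against saline 0 called (2 at an unadjusted p under 0.05 in limma) with *Esr1* -0.048, *Nr3c1* -0.10, *Thra* -0.083 and *Thrb* 0.41. Its sex differences were 0.12 for *Nr3c1* with saline, and -0.59 for *Pth1r*, -0.21 for *Esr1*, -0.44 for *Nr3c1*, -0.33 for *Thra* and -0.14 for *Thrb* between ABE and saline, and wild-type females against males gave *Esr1* -0.078, *Nr3c1* -0.17 and *Thra* -0.055. With TPM summed over the longer genes alone, *Pth1r* was 0.32, *Nr3c1* -0.073 and *Thra* -0.096 with saline, *Pth1r* 0.28 and *Thra* 0.19 with ABE, and the sex difference of *Pth1r* between ABE and saline -0.035. Quantile normalization gave *Thra* 0.26 between ABE and saline, 1 receptor called for the sex difference with saline, and *Pth1r* -0.010 for that between ABE and saline. Array weights gave *Nr3c1* 0.12 with saline, and so did fitting only the groups compared (0.12). limma-voom called 2 receptors for the sex difference with saline and 1 between wild-type females and males.

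In females alone, saline against wild-type gave 0 receptors called (2 at an unadjusted p under 0.05 in limma), *Pth1r* 0.0046, *Vdr* 0.62, *Esr1* 0.36, *Thra* -0.23 and *Thrb* -0.19. ABE against wild-type gave 3 called, *Pth1r* 0.030, *Vdr* 0.42 and *Thra* 0.25, ABE against saline *Pth1r* 0.025, and the *Thra* to *Thrb* ratio with saline 0.0050 (-0.41 in males alone). In males alone 6 were called with saline (*Nr3c1* 0.16, *Thra* 0.41, *Thrb* 0.66) and 1 between ABE and saline (*Esr1* 0.12, *Thra* 0.15, *Thrb* 0.54). Of all genes 19.4% were called between ABE-treated and saline-treated males.

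With the muscle covariate, saline gave *Pth1r* 0.40, *Nr3c1* -0.010, *Thra* -0.17 and *Thrb* -0.21, ABE against wild-type 2 called, *Pth1r* 0.29, *Nr3c1* 0.15, *Thra* -0.12 and *Thrb* 0.10, ABE against saline 2 called, *Esr1* 0.18 and *Thra* 0.048, and *Nr3c1* 0.14 for the sex difference with saline and -0.017 between wild-type sexes, where 1 was called. With neutrophil, B cell and erythroid covariates, *Pth1r* was 0.56 with saline and 0.43 with ABE and *Thra* 0.15 with ABE, and all of these calls were lost. ABE against saline had 0 called (2 unadjusted in limma), with *Esr1* 0.036, *Nr3c1* 0.17, *Thra* -0.039 and *Thrb* 0.32. The sex difference with saline had 4 called and *Nr3c1* 0.058, that between ABE and saline *Pth1r* -0.13, and 2 were called between wild-type sexes. With all 4 covariates, chosen after seeing the data, saline gave *Pth1r* 0.53, *Nr3c1* -0.081 and *Thrb* -0.15, ABE against wild-type 2 called, *Pth1r* 0.38, *Nr3c1* 0.052, *Thra* -0.039 and *Thrb* 0.046, ABE against saline 0 called (2 unadjusted in limma), *Esr1* 0.018, *Nr3c1* 0.13, *Thra* -0.088 and *Thrb* 0.20. The sex difference with saline then had 3 called and *Nr3c1* 0.15, that between ABE and saline *Pth1r* -0.11, and wild-type sexes 2 called and *Nr3c1* -0.0026. The cause of these changes was not tested. Shares of all genes called are not given here for the other scalings, the covariate fits and the fits without 1 library. The counts of receptors called in those fits therefore have no background beside them. Counts at an unadjusted p in those fits and in females alone have none either.

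Leaving out 1 library at a time gave 0 to 4 receptors called for the sex difference with saline (4 without wild-type replicate 10) and 0 to 2 between wild-type sexes, *Thra* 0.27 to 0.37 and *Pth1r* -0.058 to 0.035 between ABE and saline, and a *Pth1r* sex difference between ABE and saline of -0.015 to 0.16. No paired analysis was possible because replicate numbers were given in accession order and pair no mice.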
